A study of Arabidopsis thaliana with 8 samples.

Results

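The dark- and sugar-starvation-inducible genes examined here are 10 Arabidopsis genes, chosen by their locus codes out of the 33557 genes with a deposited value. They are 7 DIN genes (BGLU30, which is DIN2, DIN1, DIN3, DIN4, ASN1, which is DIN6, DIN10 and DIN11) and BCAT2, DRM1 and AT3G15450. All 10 were found. They were chosen with their expression in these libraries known, so their levels and differences are given as a description, and no test result is read from them.

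Plants shut off from light soon run short of sugar, and a common set of genes is then switched on in leaves. The DIN (dark-inducible) genes were isolated as transcripts that build up in leaves kept in the dark, and sugar represses them. The energy-sensing kinase SnRK1, acting partly through bZIP transcription factors, is the best known activator of such genes. Their products take apart amino acids, sugar conjugates and other reserves when photosynthesis does not supply carbon.

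RNA was sequenced from whole seedlings aged 7 days, in 2 libraries for each of 4 genotypes. Besides the wild type, Col-0, there were 2 single mutants, dek4-2 and dek3-2. The double mutant dd-2 carries both lesions. The study asked which transcripts change when DEK3 or DEK4 is mutated, a pair of genes that encode chromatin proteins of the DEK family. Seeds of all genotypes had 3 days at 4 °C in the dark, and seedlings grew on Murashige and Skoog medium with Phytagel at 22 °C under 16 h of light and 8 h of dark. The labels name no sugar in the medium, no time of day of harvest and no kind of lesion for either allele. Each single mutant is 1 allele, and the labels do not say how many seedlings made up a library. The libraries are called biological replicates.

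Values are FPKM (fragments counted on a gene, divided by a length for the gene in kilobases and by the size of the library), so levels of different genes can be set side by side. Summed FPKM ran from 839267 to 873796 per library. Relative sequencing depth, read from the steps between low values, was lowest in dd-2 replicate 2, at 0.799 of the mean library, and highest in Col-0 replicate 2, at 1.12. The mutated genes followed the labels. Mean DEK3 FPKM (± SD, n = 2) was 59.2 ± 15.5 in the wild type, 15.0 ± 2.39 in dek3-2 and 18.7 ± 1.70 in dd-2. Mean DEK4 FPKM was 29.4 ± 8.15 in the wild type, 14.3 ± 5.72 in dek4-2 and 15.9 ± 0.619 in dd-2. The library dek3-2 replicate 1 stood apart in 9 seed maturation markers (storage proteins and oleosins), whose summed level was 1781 FPKM there, 19.7 in dek3-2 replicate 2, 122.9 in dd-2 replicate 2 and 2.84 to 8.07 in the other 5 libraries.

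The upstream sequences of 3 of the genes whose levels differed most, BGLU30, ASN1 and DIN1, are shown first. BCAT2 is not shown, though its highest library was 1.85 times its lowest, against 1.76 times for DIN1. The windows end at the base before the gene's start in RefSeq's TAIR10.1 annotation and run 5′ to 3′ on the gene's strand. Searched on both strands were the G-box CACGTG and its core ACGT, which bZIP factors bind, the sugar-response elements TATCCA and TTATCC, the element ACTCAT and the evening element AAATATCT. The ACGT core lies inside the G-box. Capitals mark a match to a motif other than the bare core, on either strand. BGLU30 is shown at chr3:22216240-22216539 (plus strand), ASN1 at chr3:17441432-17441731 (minus strand) and DIN1 at chr4:16944678-16944877 (plus strand), where the window was cut to 200 bases because a neighbouring gene reaches into its far end.
BGLU30: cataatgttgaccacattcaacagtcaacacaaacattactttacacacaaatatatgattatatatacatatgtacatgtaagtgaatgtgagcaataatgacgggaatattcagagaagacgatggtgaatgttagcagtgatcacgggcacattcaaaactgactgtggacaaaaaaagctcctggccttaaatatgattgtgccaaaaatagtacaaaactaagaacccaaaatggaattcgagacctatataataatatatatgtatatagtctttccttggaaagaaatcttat
ASN1: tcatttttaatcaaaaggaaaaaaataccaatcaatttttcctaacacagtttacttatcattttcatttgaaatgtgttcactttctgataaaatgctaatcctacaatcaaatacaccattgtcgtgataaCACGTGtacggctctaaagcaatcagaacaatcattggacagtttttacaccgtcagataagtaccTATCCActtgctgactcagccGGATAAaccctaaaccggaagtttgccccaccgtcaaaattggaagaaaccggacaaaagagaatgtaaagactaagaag
DIN1: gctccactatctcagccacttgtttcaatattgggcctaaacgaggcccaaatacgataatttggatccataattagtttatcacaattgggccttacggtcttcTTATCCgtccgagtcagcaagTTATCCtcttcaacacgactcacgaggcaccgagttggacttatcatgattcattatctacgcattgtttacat

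The 300 bases before BGLU30 held none of the searched motifs, the bare ACGT core included. The ASN1 window held 1 G-box starting 167 bases before the gene's start, 1 TATCCA at 101 bases and 1 GGATAA, the reverse complement of TTATCC, at 80 bases. A small annotated gene on the opposite strand, AT3G47341, covers the 136 bases nearest to the ASN1 start, so the last 2 of these lie within it. The DIN1 window held TTATCC at 95 and at 74 bases before the start. Over all 10 genes TTATCC was found in 4 (DIN1, ASN1, DIN11 and AT3G15450), against 14.7% of 26689 windows of 300 bases before genes of the files. The G-box was found in 2 (ASN1 and DIN11), against 7.18%. The ACGT core was found in 6 against 49.1%, TATCCA in 1 against 16.2%, ACTCAT in 1 (DRM1) against 14.7% and AAATATCT in 1 (AT3G15450) against 5.71%. These matches describe letters in the windows only.

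Across genotypes the 10 genes were at their highest in dd-2 and at their lowest in dek3-2. The mean of 8 genes was highest in dd-2, and that of the other 2, DIN10 and DIN11, was highest in Col-0. The mean of 9 genes was lowest in dek3-2, the exception being DIN11, which was lowest in dek4-2. Set against each gene's own median over the 8 libraries, 9 of 10 genes were above it in each dd-2 library (8 of them in both). In the dek3-2 libraries 1 and 0 were, in the dek4-2 libraries 6 and 5, and in the Col-0 libraries 3 and 7. Of all tested genes, 58.7 and 65.2% were above their own median in the dd-2 libraries and 61.1 and 46.2% in dek3-2. The shares were 30.7 and 55.7% in dek4-2 and 39.2 and 42.5% in Col-0. For the 10 genes the Col-0 libraries thus lay on different sides, and several differences below rest on the Col-0 library used. The spread over the 8 libraries was widest for BGLU30, whose highest level was 5.39 times its lowest, then ASN1 at 2.27 times, and narrowest for DIN3 at 1.24 times.

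**Figure D1:**
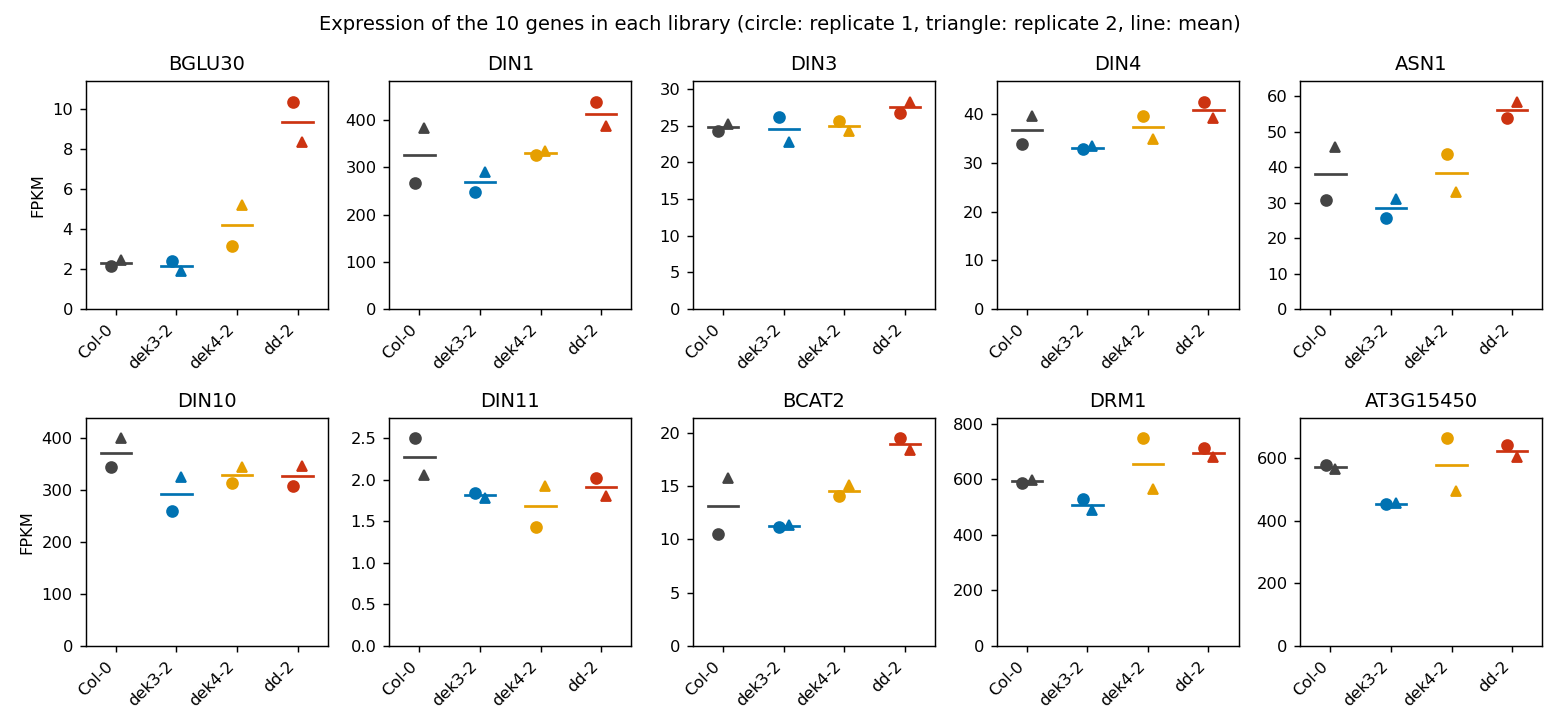
FPKM of the 10 genes (1 panel each, vertical axes from 0) by genotype, with a circle for replicate 1, a triangle for replicate 2 and a line for their mean. BGLU30 reached 10.3 and 8.34 FPKM in dd-2 against 2.13 and 2.45 in Col-0, while DIN3 stayed between 22.8 and 28.3 FPKM in all 8 libraries.

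BGLU30 (AT3G60140, chromosome 3, 22216672 to 22220824, plus strand) encodes a beta-glucosidase, an enzyme that releases sugar from conjugates. Its level was 2.13 and 2.45 FPKM in Col-0, 2.41 and 1.92 in dek3-2, 3.17 and 5.195 in dek4-2, and 10.3 and 8.34 in dd-2. The dd-2 libraries lay above all 6 others, the dek4-2 libraries lay between them and Col-0 without overlap on either side, and dek3-2 overlapped Col-0. The mean was 9.35 ± 1.42 FPKM (SD, n = 2) in dd-2 and 2.29 ± 0.222 in Col-0, a ratio of 4.08. Relative to the single mutants the dd-2 mean was 4.32 times that of dek3-2 and 2.24 times that of dek4-2 (2.17 ± 0.346 and 4.18 ± 1.43 FPKM). On the log2(FPKM + 1) scale the difference from Col-0 was 1.65 in dd-2, 0.63 in dek4-2 and -0.06 in dek3-2. The lowest library rested on about 124.7 fragments, a counting error of 9.0%.

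ASN1 (AT3G47340, chromosome 3, 17437884 to 17441243, minus strand) encodes a glutamine-dependent asparagine synthetase, which stores nitrogen in asparagine when carbon is short. It was at 30.9 and 45.7 FPKM in Col-0, 25.8 and 31.1 in dek3-2, 43.9 and 33.0 in dek4-2, and 53.8 and 58.5 in dd-2. Both dd-2 libraries were above the other 6, and Col-0 overlapped both single mutants. The dd-2 mean, 56.2 ± 3.30 FPKM (SD, n = 2), was 1.47 times that of Col-0 (38.3 ± 10.5), 1.46 times that of dek4-2 (38.4 ± 7.70) and 1.98 times that of dek3-2 (28.4 ± 3.73). The Col-0 libraries differed by 1.48 times, as much as dd-2 differed from Col-0. Without Col-0 replicate 1 the log2 difference of 0.57 became 0.29, and without Col-0 replicate 2 it became 0.84.

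DIN1 (AT4G35770, named STR15 in the files and also known as SEN1; chromosome 4, 16944941 to 16946192, plus strand) encodes a chloroplast rhodanese-like protein and is a marker of leaf senescence. It was at 268 and 383 FPKM in Col-0, 249 and 291 in dek3-2, 327 and 334 in dek4-2, and 439 and 388 in dd-2. The lower dd-2 library exceeded the higher Col-0 library by little, and the other 3 genotypes overlapped in the order of their means. The log2 difference between dd-2 and Col-0 was 0.36, with 0.11 without Col-0 replicate 1 and 0.62 without Col-0 replicate 2.

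The 3 genes that act on the branched-chain amino acids leucine, isoleucine and valine had differences of unequal size. BCAT2 (AT1G10070, chromosome 1, 3288087 to 3296198, plus strand) encodes a branched-chain aminotransferase of the chloroplast, which interconverts these amino acids and their keto acids. DIN4 (AT3G13450, chromosome 3, 4379793 to 4384436, minus strand) and DIN3 (AT3G06850, named BCE2 in the files; chromosome 3, 2157974 to 2160623, minus strand) encode the E1 beta and E2 subunits of the branched-chain keto acid dehydrogenase, which breaks the keto acids down. BCAT2 was at 10.5 and 15.8 FPKM in Col-0, 11.2 and 11.3 in dek3-2, 14.0 and 15.1 in dek4-2, and 19.5 and 18.4 in dd-2. As for ASN1, the dd-2 libraries were above the other 6 and the Col-0 libraries were far apart, by 1.5 times. The dd-2 mean was 1.44 times the Col-0 mean (log2 difference 0.52, which became 0.25 without Col-0 replicate 1 and 0.79 without Col-0 replicate 2).

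DIN3 was at 24.3 and 25.2 FPKM in Col-0, 26.2 and 22.8 in dek3-2, 25.6 and 24.2 in dek4-2, and 26.7 and 28.3 in dd-2. DIN4 was at 33.9 and 39.6 FPKM in Col-0, 32.8 and 33.4 in dek3-2, 39.7 and 34.9 in dek4-2, and 42.5 and 39.1 in dd-2. The dd-2 mean was 1.11 times that of Col-0 for both. In unscaled FPKM the dd-2 libraries of DIN3 lay just above all others, and those of DIN4 overlapped Col-0 and dek4-2. With median-of-ratios scaling, which divides dek4-2 replicate 1 by 0.918, that library lies above both dd-2 libraries for DIN3. The log2 difference from Col-0 was 0.14 for DIN3 and 0.15 for DIN4, and with median-of-ratios scaling it was 0.06 and 0.07. That of DIN4 was 0.04 without Col-0 replicate 1 and 0.26 without Col-0 replicate 2. Some values here may hold reads of a neighbour, because the files' loci for BCAT2 and DIN4 are merged with a gene on the opposite strand and the sources used here do not state whether strand was used in counting. BCAT2 overlaps AT1G10090 by 161 bp, and that gene was also higher in dd-2, at 14.5 and 15.0 FPKM against 11.3 and 12.7 in Col-0. DIN4 overlaps TBP1 by 27 bp and AT3G15450 overlaps AT3G15460 by 41 bp.

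DRM1 and AT3G15450 were the most abundant of the 10. DRM1 (AT1G28330, named DYL1 in the files; chromosome 1, 9933884 to 9935271, minus strand) belongs to a family of dormancy-associated proteins, and AT3G15450 (chromosome 3, 5212984 to 5216261, plus strand) encodes an aluminium-induced family protein with YGL and LRDR motifs. DRM1 was at 586 and 599 FPKM in Col-0, 530 and 488 in dek3-2, 748 and 566 in dek4-2, and 713 and 679 in dd-2. AT3G15450 was at 576 and 564 FPKM in Col-0, 451 and 457 in dek3-2, 662 and 495 in dek4-2, and 642 and 604 in dd-2. For both genes the dek3-2 libraries lay below all other libraries and dd-2 lay above Col-0, while the dek4-2 libraries fell on either side of Col-0. The dd-2 mean was 1.37 times the dek3-2 mean for both genes, against 1.17 and 1.09 times the Col-0 mean.

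DIN10 and DIN11 were not higher in dd-2 than in Col-0. DIN10 (AT5G20250, named RFS6 in the files; chromosome 5, 6833659 to 6836782, plus strand) encodes a raffinose synthase-like protein and DIN11 (AT3G49620, chromosome 3, 18393747 to 18396816, plus strand) a dioxygenase that uses 2-oxoacids. DIN10 was at 344 and 399 FPKM in Col-0, 260 and 325 in dek3-2, 313 and 344 in dek4-2, and 308 and 346 in dd-2. DIN11 was at 2.50 and 2.05 FPKM in Col-0, 1.84 and 1.78 in dek3-2, 1.44 and 1.92 in dek4-2, and 2.02 and 1.80 in dd-2. For DIN11 all 6 mutant libraries were below both Col-0 libraries, and for DIN10 the dek3-2 libraries were. DIN11 had the thinnest data, with about 59.3 to 104.1 fragments per library and a counting error of up to 13.0%.

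The 7 DIN genes therefore did not share 1 pattern. Over the 8 libraries the profiles nearest to the mean of the other 9 genes, by root mean square difference of centred log2(FPKM + 1), were those of DIN1 (0.11), DIN4 (0.11), BCAT2 (0.13), DRM1 (0.14) and AT3G15450 (0.15). The farthest were those of BGLU30 (0.59), DIN11 (0.28), DIN10 (0.24) and ASN1 (0.23). These distances are not scaled to a gene's own range. The root mean square of the gene's own profile was 0.13 for DIN4, little above its distance, and 0.39 for ASN1. For DIN3 it was 0.09, below its distance of 0.18. The profiles of BGLU30 and ASN1 had wider ranges than the mean, and DIN10 and DIN11 had lower means in dd-2 than in Col-0.

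Setting dd-2 against Col-0 addresses mutation of both DEK genes together. The log2 difference was above 0 for 8 of the 10 genes, with a median of 0.19 and a range of -0.18 (DIN10) to 1.65 (BGLU30), beside a median of 0.08 over the 19017 genes tested, 65.9% of which were above 0. Both dd-2 libraries were above both Col-0 libraries for 7 genes (BGLU30, DIN1, DIN3, ASN1, BCAT2, DRM1 and AT3G15450), a pattern that 38% of all tested genes showed. Both were below for 1 gene, DIN11, as for 15.3% of all tested genes. In limma's fit across all tested genes 1 of the 10, BGLU30, passed a Benjamini-Hochberg adjusted p of 0.05 with a higher level, where 0.142% of all tested genes did, and nothing is read from that count because the genes were chosen with these values known. All 10 genes reached the mean of 1 FPKM needed to enter the fit. That count was 0 with no filter on low values and when any 1 of the Col-0 or dd-2 libraries was left out, with log2 differences of BGLU30 from 1.51 to 1.79. Median-of-ratios scaling lowered the median of the 10 genes to 0.11, beside 0.00 over all genes, and left DIN3 at 0.06, DIN4 at 0.07 and AT3G15450 at 0.04. The counts without overlap, and their shares over all tested genes, are for unscaled FPKM. The scaling divides the dd-2 libraries by 1.04 and 1.06 and the Col-0 libraries by 0.989 and 0.984. Libraries of dd-2 and Col-0 then overlap for DIN1 and AT3G15450.

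Between libraries of the same replicate number the median difference of the 10 genes was 0.30 for number 1, with 8 genes above 0, and 0.13 for number 2, with 7 above 0. These seedlings were sampled whole, and fewer cells of a type and less RNA per cell cannot be told apart in such samples. Tissue markers differed with dd-2 too. The summed level of 6 root markers was 1216 to 1458 FPKM in dd-2, 880 to 926 in Col-0 and 954 to 1046 in the single mutants, but PYK10 alone made up 98.5 to 99.0% of it. The other 5 root markers summed to 18.7 to 19.5 FPKM in dd-2, 9.19 to 13.0 in Col-0 and 9.76 to 13.0 in the single mutants, with CASP1 and PER64 higher than Col-0 without overlap, COBL9 and RHD6 overlapping it and PLT2 at 0.76 times its mean. The summed level of 5 leaf mesophyll markers was 16328 to 16954 FPKM in dd-2, 20154 to 23251 in Col-0, 19324 to 19784 in dek3-2 and 19038 to 21503 in dek4-2. RBCS1A made up 65.2 to 65.8% of it, the other 4 summed to 5608 to 5800 FPKM in dd-2 against 6944 to 8091 in Col-0, and LHCB1.1 differed in direction, at 1.18 times the Col-0 mean. None of these markers, nor any seed maturation marker, was at 0 in all libraries of a genotype. The part of the tissue make-up in the differences of the 10 genes was not tested.

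**Figure D2:**
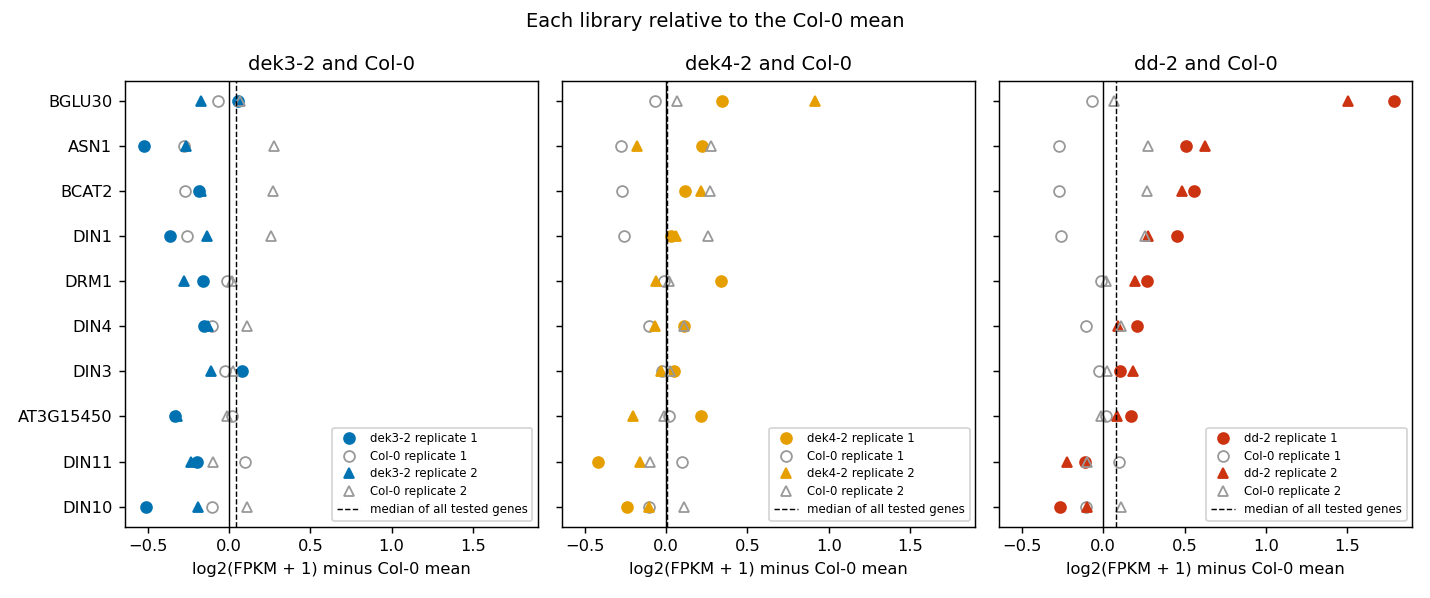
Each library's log2(FPKM + 1) minus the Col-0 mean for the 10 genes, ordered by their dd-2 difference, in 3 panels for dek3-2, dek4-2 and dd-2. Filled symbols are the mutant, open grey symbols Col-0, and the dashed line is the median of all tested genes. BGLU30 lies apart in dd-2 at a mean of 1.65, and the open symbols of ASN1, BCAT2 and DIN1 spread as far as most filled ones.

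In dek3-2 the mean levels of the 10 genes were lower than in Col-0. The same Col-0 libraries serve all 3 mutants, so the differences are not independent of each other. All 10 log2 differences were below 0 in dek3-2, with a median of -0.22 and a range of -0.40 (ASN1) to -0.02 (DIN3), beside a median of 0.04 over all tested genes, 64.7% of which were above 0. Both dek3-2 libraries were below both Col-0 libraries for 5 genes (DIN4, DIN10, DIN11, DRM1 and AT3G15450), as for 10.1% of all tested genes, and above them for 0 genes, as for 20.9% of all tested genes. None of the 10 passed limma's test, which called 0.0421% of all tested genes in either direction, 0.021% as higher and 0.021% as lower. Without dek3-2 replicate 1, the library high in seed maturation markers, all 10 remained below 0 with a median of -0.18, and without dek3-2 replicate 2 the median was -0.19 with 2 genes above 0 (BGLU30 at 0.05 and DIN3 at 0.08). Without Col-0 replicate 2 the median was -0.08 and 6 of 10 were below 0. Between libraries of the same number it was -0.12 with 3 genes above 0 for number 1 and -0.30 with 0 above 0 for number 2. The summed leaf mesophyll markers, mostly RBCS1A, also lay below Col-0 without overlap in dek3-2. Singly, RBCS1A, RCA and PSAD1 did so, GAPA1 overlapped Col-0 and LHCB1.1 was at 1.08 times the Col-0 mean. The part of these markers in the differences of the 10 genes was not tested.

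In dek4-2 the levels were close to those of Col-0. The median log2 difference was 0.02, beside 0.00 over all tested genes, with a range of -0.29 (DIN11) to 0.63 (BGLU30). Above 0 were 8 of 10, where 51.1% of all tested genes were. The dek4-2 libraries were above both Col-0 libraries for 1 gene, BGLU30, as for 12% of all tested genes, and below for 1 gene, DIN11, as for 12.1%. None of the 10 passed limma's test, which called 0.021% of all tested genes in either direction, 0.00526% as higher and 0.0158% as lower. The dek4-2 libraries differed from each other by 1.64 times for BGLU30, 1.34 times for DIN11 and AT3G15450, 1.33 times for ASN1 and 1.32 times for DRM1. The direction of the median rested on the Col-0 library used, at -0.10 without Col-0 replicate 1 and 0.14 without Col-0 replicate 2. Between libraries of the same number it was 0.25 with 8 genes above 0 for number 1 and -0.13 with 1 above 0 for number 2.

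Against the single mutants dd-2 was further apart from dek3-2 than from dek4-2. Against dek3-2 all 10 differences were above 0, with a median of 0.45 beside 0.03 over all tested genes, and 8 genes had no overlap between libraries, where 27% of all tested genes were higher without overlap. The exceptions were DIN10 and DIN11. Against dek4-2 the median was 0.13 beside 0.07, and 5 genes (BGLU30, DIN1, DIN3, ASN1 and BCAT2) were higher without overlap, where 32.7% of all tested genes were. These counts are for unscaled FPKM, and the separation of DIN3 from dek4-2 did not hold with median-of-ratios scaling.

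Other genes of the same responses were followed in 11 lists with 136 genes, of which 132 have a row in the files and 123 entered the test. With limma and Benjamini-Hochberg adjustment over all 19017 genes, 0 of the 123 passed in dd-2, dek3-2 or dek4-2, and 37, 7 and 3 had an unadjusted p under 0.05, beside 3529, 655 and 374 of all tested genes. In dd-2 the listed genes had a median log2 difference of 0.13 beside 0.08 over all genes, and 65 of 123 (52.8%) were higher and 17 (13.8%) lower than Col-0 without overlap, where 38% and 15.3% of all tested genes were. The lists were chosen with earlier results known, and these values are a description.

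The list of other dark- or sugar-responsive genes had medians near those of the 10 genes in dd-2 and dek3-2 but not in dek4-2. In dd-2 its median was 0.16, with 7 of 10 tested genes above 0 and 4 higher than Col-0 without overlap, where 38% of all tested genes were. In dek3-2 its median was -0.22, with 0 of 10 above 0 and 6 lower than Col-0 without overlap, where 10.1% of all tested genes were. In dek4-2 it was -0.09, with 0 of 10 above 0. There 8 of the 10 starvation genes were above 0 with a median of 0.02, where 51.1% of all tested genes were. Between libraries of the same number, 8 of the starvation genes were above 0 for number 1 and 1 for number 2. None of the genes of this list passed the test. The highest in dd-2 was BGAL4, a beta-galactosidase, at 60.7 and 53.6 FPKM in Col-0, 50.9 and 46.6 in dek3-2, 54.3 and 51.7 in dek4-2, and 81.2 and 66.0 in dd-2 (log2 difference from Col-0 0.36, SE 0.11, limma adjusted p = 0.163). Its order of genotypes, dd-2 above Col-0 above dek4-2 above dek3-2, differed from that of ASN1 in the middle places only. The lowest was STP1, a hexose transporter, at -0.11 in dd-2 and -0.42 in dek3-2.

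Genes of dark-induced senescence had a median of 0.38 in dd-2, 0.07 in dek3-2 and 0.15 in dek4-2. In dd-2 10 of 15 were above 0, near the 65.9% of all tested genes that were. Also in dd-2, 9 of 15 were higher than Col-0 without overlap and 2 (WRKY53 and WRKY6) lower, where 38% and 15.3% of all tested genes were. PIF4, a light-controlled transcription factor that promotes senescence in the dark, was at 3.16 and 3.59 FPKM in Col-0, 3.25 and 2.49 in dek3-2, 5.38 and 4.14 in dek4-2, and 7.43 and 7.27 in dd-2. Like BGLU30 it was highest in dd-2 and between in dek4-2. Its log2 difference in dd-2 was 0.93 (SE 0.15) with a limma adjusted p of 0.0612, the lowest among the 123 listed genes. WRKY53, a transcription factor of early leaf senescence, was the lowest of the list at -0.42 (SE 0.21, adjusted p = 0.322). In dek3-2 the lowest limma adjusted p among listed genes was 0.146, for SAG29, a sugar transporter of senescing leaves named here for that value. SAG29 was higher in dek3-2, at 3.31 and 3.59 FPKM, than in Col-0, at 1.45 and 1.38.

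The autophagy list, genes of the pathway that recycles cell contents, had a median of 0.17 in dd-2, with 11 of 12 above 0 and 8 of 12 higher than Col-0 without overlap, where 65.9% and 38% of all tested genes were. Its extremes were ATG8F at 0.30 (SE 0.12, limma adjusted p = 0.233) and ATG5 at -0.12. The trehalose-6-phosphate synthase family, whose class II members respond to sugar status, had a median of 0.25, with 6 of 8 higher than Col-0 without overlap and 1 lower, where 38% and 15.3% of all tested genes were. It ran from TPS5 at 0.42 (SE 0.18, adjusted p = 0.260) to TPS11 at -0.13. In dek3-2 and dek4-2 the medians of both lists lay between 0.03 and 0.04, and no member passed.

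Listed genes that sugar induces, and that fall in starved plants, were also mostly above Col-0 in dd-2. Their median there was 0.48 with 7 of 8 above 0, where 65.9% of all tested genes were. It was 0.35 in dek3-2 and 0.27 in dek4-2 with 8 of 8 above 0 in both, where 64.7% and 51.1% were. Without overlap, 4 were higher than Col-0 in dd-2, 2 in dek3-2 and 1 in dek4-2. Of all tested genes 38%, 20.9% and 12% were. Col-0 replicate 1 was below Col-0 replicate 2 for every gene of this list, so these differences rest partly on the Col-0 library used. DFR, an enzyme of anthocyanin synthesis, was at 3.46 and 4.31 FPKM in Col-0 and 19.1 and 10.2 in dd-2 (log2 difference 1.62, SE 0.32, limma adjusted p = 0.0885). CHS, the first enzyme of the flavonoid pathway, was the lowest of the list at -0.21 (adjusted p = 0.611).

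The other lists lay within 0.05 of the median of all genes in dd-2. Branched-chain amino acid catabolism, the pathway of DIN3 and DIN4, had a median of 0.07, from D2HGDH at 0.29 to MTLPD1 at -0.39. Other amino acid catabolism had 0.04, from LKR_SDH, which degrades lysine, at 0.73 to TAT7 at -0.11. Starch breakdown had 0.08, from AMY3, an amylase, at 0.33 to BAM3 at -0.30. The SnRK1 kinase and bZIP list had 0.07, with 10 of its 14 genes in the files, from BZIP63 at 0.19 to BZIP2 at -0.14. Clock genes had 0.11, from PRR7 at 0.83 to ELF4 at -0.08. Their summed level was 367 to 380 FPKM in dd-2, 352 to 355 in Col-0, 339 to 358 in dek3-2 and 339 to 350 in dek4-2. ELF4 was the largest part of it, at 159 to 168 FPKM in dd-2 and 164 to 182 in Col-0. As the hour of harvest is not given, the part of time of day in these values was not tested. The paralogs of the 10 genes had 0.08, from BGLU28, a close relative of BGLU30, at 1.30 (SE 0.51, limma adjusted p = 0.272) to ASN3 at -0.28. BGLU28 was at 18.2 and 42.5 FPKM in Col-0 and 72.5 and 68.3 in dd-2, so its Col-0 libraries were further apart than those of BGLU30.

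**Figure D3:**
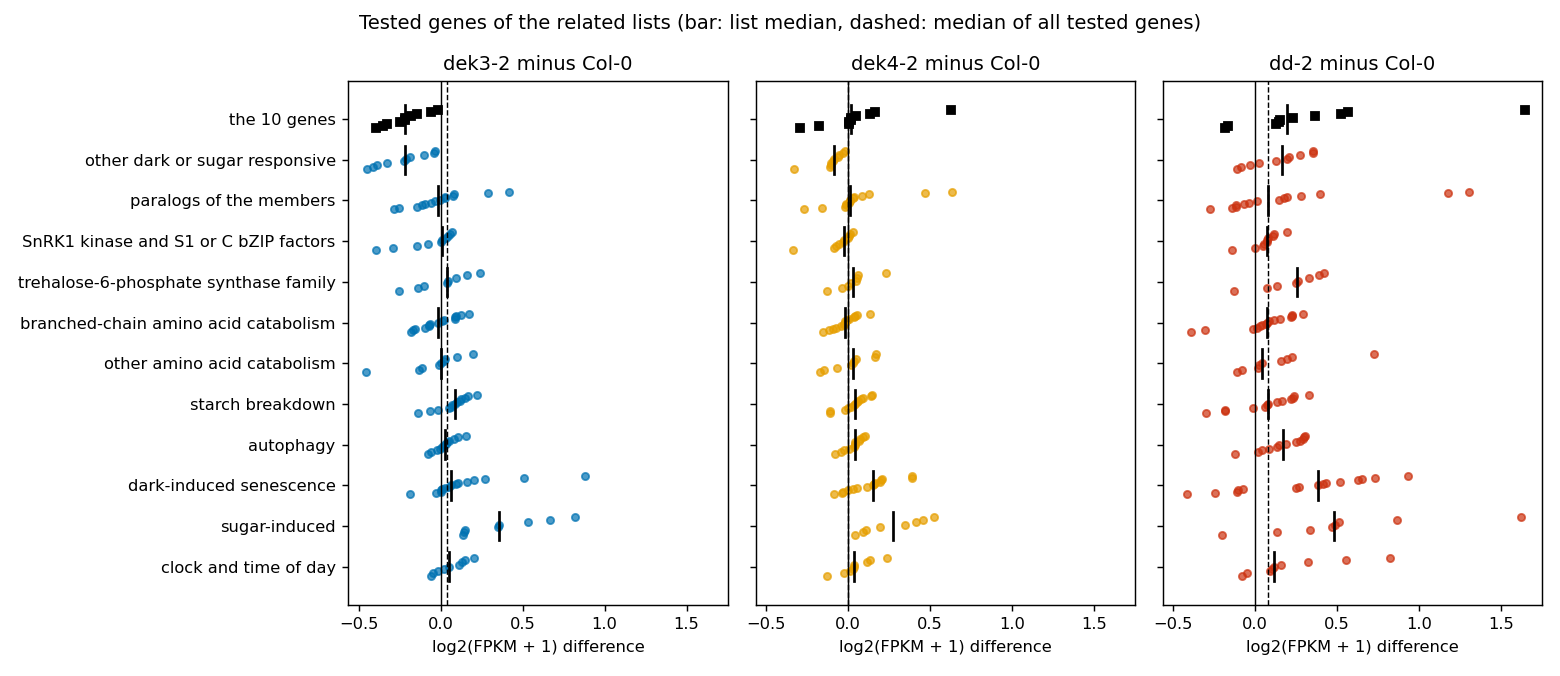
Log2(FPKM + 1) difference from Col-0 for the tested genes of the 11 lists and, as squares, the 10 genes, in dek3-2, dek4-2 and dd-2. Each point is 1 gene, the bar is the list's median and the dashed line the median of all tested genes. In dek3-2 the 10 genes and the other dark- or sugar-responsive genes lie at or below 0, with medians of -0.22, and the sugar-induced list lies above 0 in dek3-2 and dek4-2.

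**Figure D4:**
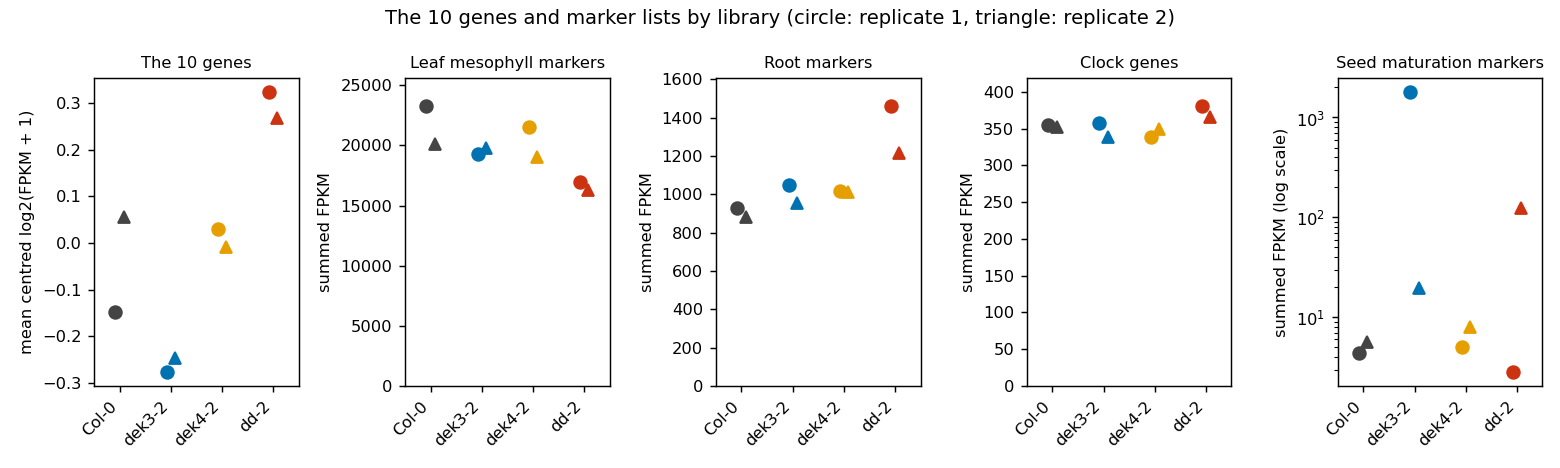
The mean centred log2(FPKM + 1) of the 10 genes beside the summed FPKM of leaf mesophyll, root, clock and, on a log axis, seed maturation genes in each library, with a circle for replicate 1 and a triangle for replicate 2. The dd-2 libraries are highest for the 10 genes (0.32 and 0.27) and the root markers, whose sum is nearly all PYK10, and lowest for the leaf markers, and dek3-2 replicate 1 stands out in seed maturation genes at 1781 FPKM.

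Among all other tested genes, those whose profiles over the 8 libraries were nearest to the mean of the 10 genes were HVA22F, PUP22 (AT1G57980), MCCA, PATL1 and AT2G20670. Their root mean square differences from it, on the centred log2(FPKM + 1) scale, were 0.0503, 0.0636, 0.0642, 0.0673 and 0.0706, beside a root mean square of 0.206 for the mean profile itself. PATL1, for instance, was at 247 and 277 FPKM in Col-0, 234 and 247 in dek3-2, 264 and 261 in dek4-2, and 320 and 308 in dd-2. MCCA is also in the branched-chain amino acid list. Nearest to BGLU30 were PME16 (0.249), AT1G19530 (0.281) and ICS2 (0.300), beside 0.707 for BGLU30 itself. BGLU30 is 1 gene with a wider profile than the mean of 10, so these distances are not comparable with those to the mean. PME16 was at 3.62 and 3.84 FPKM in Col-0 and 11.4 and 9.11 in dd-2.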

How the data were processed

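RNA of whole seedlings was sequenced in 8 libraries. Each deposited file gives FPKM per gene, per the file headers, and the program that wrote the FPKM is not given in the sources used here. The submitters' processing notes name HISAT2, featureCounts, edgeR and TAIR10 without versions. The kit was directional, per the labels' protocols. The files hold no counts. In single-exon genes, with 180 to 190 bases taken off the gene's length, 99.6 to 99.9% of low values lay within 0.15 of a whole number of fragments (30% by chance). These steps served to estimate depth, not to recover counts for a test.

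The values were fitted as log2(FPKM + 1), which understates changes of low genes, with limma 3.58.1 in R 4.3.3 (variance trend, robust), in 1 model of 8 libraries with 1 mean per genotype. The 19017 genes that averaged 1 FPKM or more were tested, at a Benjamini-Hochberg adjusted p below 0.05. The members and the lists were chosen with earlier results of these data known. Named genes were all members, DEK3 and DEK4, the highest and lowest gene of each list in dd-2, and the genes nearest in profile; SAG29, LUX, STR18, WRKY6, the tissue markers and the overlapping neighbours were chosen with their values known. The listed genes GRIK2, BZIP1, BZIP53 and BZIP11 were not analysed here. Positions are TAIR10 loci of the files, counted from 1, and 32812 of 32813 matched loci overlapped the gene of the same code in TAIR10.1. Alternatives were another pseudocount (0.1), median-of-ratios scaling, no organelle genes, length and GC trends removed, no filter, the compared groups alone, a replicate block and leaving out each library. Figures used matplotlib 3.10.9 in Python 3.11.15.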

Additional observations from a re-analysis of the deposited data

How the results depend on the processing

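Against 48 genes called in dd-2, no filter on low values gave 26, the compared groups alone 20 and the replicate block 305, and leaving out 1 library gave 11 to 39. Median-of-ratios scaling gave 46 calls, 19 higher and 27 lower instead of 27 and 21, and moved the median of all genes from 0.08 to 0.00. The 10 genes then had a median of 0.11 in dd-2, still with 8 above 0. Of the listed genes 3 were called in dd-2 with the replicate block, PIF4 (adjusted p = 0.0371), LUX (0.0480) and STR18 (0.0018), and 0 in the other alternatives. The labels do not say that a number marks a shared batch, and same-numbered deviations correlated across genes at only -0.065 to 0.23, so the numbers were not taken as pairs. The chloroplast genome nonetheless took 1.19 to 1.43% of FPKM in every library numbered 1 and 1.79 to 1.87% in every library numbered 2, and whether a number marks a shared batch was not settled. In dek3-2, against 8 calls, no filter gave 14 and removed length and GC trends gave 4, and leaving out 1 library gave 7 to 19 (without dek3-2 replicate 2). The block changed neither the single mutants' listed calls nor their counts beyond 1.5 times (7 in dek3-2, 4 in dek4-2). In dek4-2, against 4 calls, removed trends gave 2, and leaving out 1 library gave 4 to 11. The cause was not tested. The median difference of the 10 genes ran from 0.13 to 0.25 in dd-2, from -0.28 to -0.08 (without Col-0 replicate 2, -0.078) in dek3-2 and from -0.10 to 0.14 in dek4-2 with 1 library left out. In dd-2 none of the 10 genes changed direction over 12 alternatives, but several of these could not change it. Leaving out a dek3-2 or dek4-2 library leaves the dd-2 difference as it was. Leaving out a dd-2 or Col-0 library cannot reverse it where the dd-2 and Col-0 libraries do not overlap. Between the libraries numbered 2, 7 rather than 8 genes were above 0. With 2 libraries per genotype, differences the size of those between Col-0 replicates (up to 1.5 times in BCAT2) could not be resolved. Larger ones could be missed too, as the mutated genes themselves did not pass limma's test. DEK3, at 0.25 times its Col-0 mean in dek3-2, had an adjusted p of 0.461 there and 0.0828 in dd-2. DEK4 had 0.232 in dd-2 and did not pass in dek4-2 either, at 0.49 times Col-0. A gene that did not pass is thus not shown to be unchanged.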
